A study of Mus musculus with 22 samples.

Results

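The nuclear genes for proteins of the mitochondrial ribosome were followed in bone marrow-derived macrophages (BMDM) exposed to lipopolysaccharide (LPS), the outer membrane component of Gram-negative bacteria that activates Toll-like receptor signalling. Members were chosen by symbol among all named mouse genes with a RefSeq probe on the array, without pseudogenes. The symbol begins with Mrpl (named for the large subunit) or Mrps (named for the small subunit) and a digit. This gave 78 members among 20887 named genes with a RefSeq probe. Of these, 77 were tested, 48 with an Mrpl and 29 with an Mrps symbol, and each of the 77 was above background on all 22 arrays. Mrpl21 was not tested because its probe was above background on only 2 of 22 arrays. The macrophages were grown for 9 days with 10 ng/ml M-CSF from femoral marrow of mice labelled as strain C57BL/6 (C57BL/6J for the deficient animals in the study's methods), male and 10 to 14 weeks old. The donors were wild-type (wt) animals, animals deficient in the p38-activated kinase MK2 (MK2-/-) and animals deficient in both MK2 and its relative MK3 (MK2/3-/-), with each gene disrupted in the germline and thus not in macrophages alone. Cells were kept for 360 min with 100 ng/ml LPS or in medium. The groups were wt medium with 4 arrays, wt LPS with 3, MK2-/- medium with 4, MK2-/- LPS with 4, MK2/3-/- medium with 3 and MK2/3-/- LPS with 4.

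Mitochondrial ribosomes translate the few messenger RNAs of the mitochondrial genome, all of which encode subunits of the respiratory chain and the ATP synthase. Their ribosomal RNAs come from mitochondrial DNA, while their proteins are encoded in the nucleus, made in the cytosol and imported. Some of these proteins have a counterpart in bacterial ribosomes and others are specific to mitochondria, and LPS-activated macrophages are known for a shift of energy metabolism towards glycolysis.

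Values are log2 signals after quantile normalisation, and a difference of 1 on this scale is a 2-fold change. A gene was called when its limma p-value, adjusted by the Benjamini-Hochberg method over all 22383 genes tested, was below 0.05, and adjusted p-values below are of this kind. The probe for Mapkapk2, which encodes MK2, lay at 10.79 to 12.42 in wt medium, 8.70 to 9.00 in MK2-/- medium and 8.34 to 8.50 in MK2/3-/- medium. The probe for Mapkapk3, which encodes MK3, lay at 12.82 to 13.40 in wt medium, 12.40 to 13.12 in MK2-/- medium and 10.95 to 11.40 in MK2/3-/- medium. Under LPS, Mapkapk2 differed from wt by -3.35 in MK2-/- and by -3.95 in MK2/3-/- BMDM, although its probe was still above background there, and whether the probe lies in the deleted part was not given. Macrophage markers such as Adgre1 and Csf1r were above background on all arrays, with mean log2 signals of 16.18 and 17.88. On 2 arrays, MK2-/- LPS replicate 3 and MK2-/- medium replicate 3, the mean log2 signal of 4 Y-linked genes was 2.08 and 2.33 against 6.85 to 8.82 on the other 20 arrays, which went against the label male. MK2-/- LPS replicate 3 also had 2927 spots marked by the scanner software against 115 to 261 on the other 21 arrays. Without these 2 arrays, 22 of 27 calls of named members in comparisons with MK2-/- groups were kept. The largest shift among these 27 values was 0.12 on the log2 scale (Mrpl42). Values that were not called could move more, as for Mrpl42 in MK2-/- against wt under LPS, from -0.90 to -1.15. Counts and medians without these arrays are given beside the results. All arrays of one genotype shared a slide, and the wt slide was scanned on another day than the other two slides, so that genotype and slide cannot be told apart in direct comparisons of genotypes, whereas LPS and medium were compared within a slide. The labels named no animals. Within each treatment the MK2-/- arrays came from donors of different ages, whereas in the other groups some arrays shared an age. The paper describes its array experiments at each time point as independent. The p-values measure the spread between these samples.

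Promoter windows were available for 68 of the 77 members in a RefSeq table of the assembly GRCm38.p6, each covering 250 bases before to 50 bases after an annotated start, and 3 of these members had more than 1 window. Windows are printed for the members that were among the 6 largest LPS-induced falls in every genotype (Mrpl41, Mrpl51 and Mrps26, with no window for the fourth such member, Mrps35) and for both members that rose in every genotype (Mrpl46 and Mrpl52). The sequences run 5′ to 3′ on the strand of the gene, and capitals mark matches on either strand to any of 6 motifs, GCATGCG (core of the NRF1 motif), CCGGAAG (ETS factors including GABP), AAGATGG (YY1), CACGTG (E-box), GGGCGG (Sp1) and TATAAA (core promoter box bound by TBP).
Mrpl41, chr2:24975049-24975348, minus strand: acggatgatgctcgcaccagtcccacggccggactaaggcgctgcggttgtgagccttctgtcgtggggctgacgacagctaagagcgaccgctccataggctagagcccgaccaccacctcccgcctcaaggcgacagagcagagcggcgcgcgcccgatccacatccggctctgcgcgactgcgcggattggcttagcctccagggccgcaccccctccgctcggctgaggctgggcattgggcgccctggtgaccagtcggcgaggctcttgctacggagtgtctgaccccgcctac
Mrpl51, chr6:125191950-125192249, plus strand: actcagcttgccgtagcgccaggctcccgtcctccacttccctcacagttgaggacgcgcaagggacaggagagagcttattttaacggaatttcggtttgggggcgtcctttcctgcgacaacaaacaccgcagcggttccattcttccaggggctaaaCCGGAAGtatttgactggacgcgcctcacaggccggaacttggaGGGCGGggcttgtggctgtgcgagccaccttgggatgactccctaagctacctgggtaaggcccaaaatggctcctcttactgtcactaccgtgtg
Mrps26, chr2:130563507-130563806, plus strand: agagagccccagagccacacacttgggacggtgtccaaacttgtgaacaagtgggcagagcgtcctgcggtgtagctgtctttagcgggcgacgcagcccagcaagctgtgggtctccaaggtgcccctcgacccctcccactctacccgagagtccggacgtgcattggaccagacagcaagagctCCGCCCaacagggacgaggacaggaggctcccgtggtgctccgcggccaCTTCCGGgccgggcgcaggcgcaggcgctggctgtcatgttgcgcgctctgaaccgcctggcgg
Mrpl46, chr7:78783040-78783339, minus strand: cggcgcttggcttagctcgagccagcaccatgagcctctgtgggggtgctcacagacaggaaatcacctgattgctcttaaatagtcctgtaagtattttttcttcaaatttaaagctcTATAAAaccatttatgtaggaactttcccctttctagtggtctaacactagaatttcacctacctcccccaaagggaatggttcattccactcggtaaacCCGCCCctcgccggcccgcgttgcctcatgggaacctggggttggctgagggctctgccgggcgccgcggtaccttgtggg
Mrpl52, chr14:54426659-54426958, plus strand: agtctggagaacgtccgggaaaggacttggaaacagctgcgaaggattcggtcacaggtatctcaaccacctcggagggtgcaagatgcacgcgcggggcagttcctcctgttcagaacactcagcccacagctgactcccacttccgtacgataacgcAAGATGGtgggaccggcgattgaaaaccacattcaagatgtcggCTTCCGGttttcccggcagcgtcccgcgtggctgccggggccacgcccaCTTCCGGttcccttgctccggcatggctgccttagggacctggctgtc

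Mrpl51 and Mrps26, which fell, and Mrpl52, which rose, all held CCGGAAG, with the match starting 90 bases before the annotated start in Mrpl51 and 14 bases before it in Mrps26. In Mrps26 and Mrpl52 the match is on the opposite strand and reads CTTCCGG in the printed window. Mrpl52 held 2 such matches, starting 47 bases before and 2 bases after the start, and also AAGATGG. Mrpl41 held none of the 6 motifs. GGGCGG stood in Mrpl46, which rose, and in Mrpl51 and Mrps26, which fell. Mrpl46 also held TATAAA, with the match starting 131 bases before the annotated start. Over all members with a window, CCGGAAG was found in 25 of 68 (36.8%) against 14.8% of the 14566 tested genes with a window and 9.93% of all 27025 genes in the table. AAGATGG was found in 19.1% of members against 7.64% of tested genes, GCATGCG in 11.8% against 5.59%, GGGCGG in 50% against 55.4%, CACGTG in 7.35% against 9.87% and TATAAA in 7.35% against 12.9%. CCGGAAG stood in 14 of the 30 members with a window that fell in all genotypes and in 8 of the 17 that were called in none. GCATGCG stood in 1 of these 30 and in 4 of these 17. These matches describe the letters in the windows, and binding of the factors was not measured. The median G and C content of the windows was 58.5% in members and 58% in tested genes.

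LPS lowered the signal of a large share of the mitoribosomal protein genes in every genotype, and only Mrpl52 and Mrpl46 rose, whereas with scaling to the 75th percentile 7 members rose in wt, 6 in MK2-/- and 8 in MK2/3-/- BMDM. In wt BMDM, 33 of 77 members were called lower, where 23.2% of all genes tested were, and 2 were called higher, where 18.6% of all genes were. In MK2-/- BMDM, 46 were lower (26.7% of all genes) and 2 higher (17.7%), and in MK2/3-/- BMDM, 47 were lower (27.5%) and 2 higher (20.3%). The median log2 difference of members was -0.42 in wt, -0.64 in MK2-/- and -0.81 in MK2/3-/- BMDM, while the median over all genes tested was -0.04, 0.00 and 0.02. Members were bright on these arrays, with a mean log2 signal of at least 10 in 67 of 77. Among all 6708 genes at or above that signal, 35.4% were called lower in wt, 40% in MK2-/- and 41.7% in MK2/3-/-, with medians of -0.23, -0.26 and -0.32. In these bulk samples, fewer transcripts per cell and fewer cells with those transcripts cannot be told apart.

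The same members were lowered in the 3 genotypes to a large extent. In all, 32 of 77 members were called lower in every genotype, against 19.2% of all genes, 22 were called in no genotype and none was called in opposite directions. A further 8 were called lower in MK2-/- and MK2/3-/- but not in wt, 6 in MK2-/- alone and 6 in MK2/3-/- alone, and 1 in wt and MK2/3-/-. A call in one genotype and not in another does not show a difference, for which the interaction was tested. These patterns also depend on the probe. A second probe for Mrps14, the member in wt and MK2/3-/-, gave -0.16 in wt (adjusted p = 0.63). It was called lower in MK2-/- (-1.095) and in MK2/3-/- (-1.17). Among the 6 in MK2-/- alone, the second probe of Mrps25 was called lower in every genotype. That of Mrpl10 was called lower in both deleted genotypes and that of Mrpl22 in MK2/3-/- alone. Without regard to the test, 56 of 77 members had a difference below 0 in every genotype, against 8543 of 22383 genes. All LPS arrays lay below all medium arrays for 37 members in wt, against 26.5% of all genes, for 47 in MK2-/- (24.1%) and for 48 in MK2/3-/- (28.4%).

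**Figure D1:**
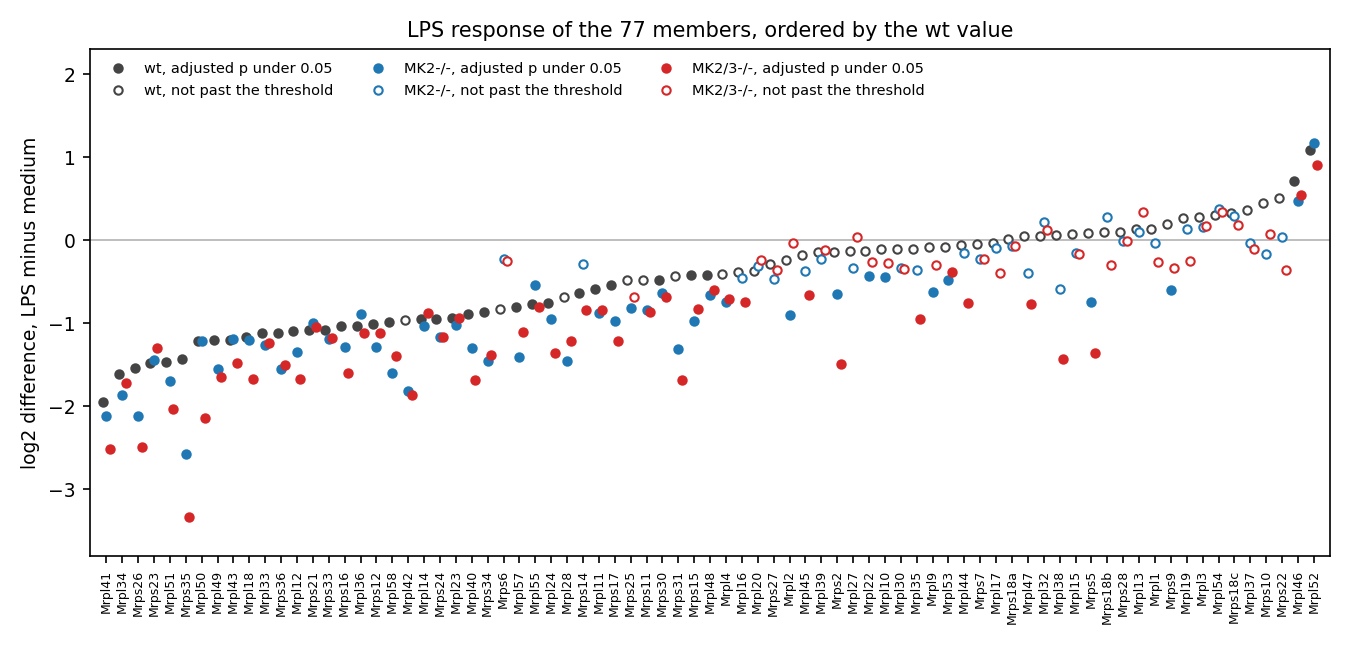
LPS response of the 77 members in 3 genotypes. The vertical axis gives the log2 difference, LPS minus medium, and members are ordered along the horizontal axis by the wt value. Filled points passed an adjusted p of 0.05 and open points did not. Most points lie below 0 in each genotype, from -1.95 in wt, -2.58 in MK2-/- and -3.34 in MK2/3-/-, and Mrpl52 is the highest at 1.09, 1.17 and 0.91.

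The median signal of the members on each array separated the treatments. The deviation of each member from its own mean over all arrays had a median of 0.29 to 0.51 on the wt medium arrays and -0.12 to 0.12 on the wt LPS arrays. In MK2-/- BMDM it was 0.30 to 0.44 in medium and -0.43 to -0.29 under LPS, and in MK2/3-/- BMDM 0.18 to 0.23 in medium and -0.88 to -0.33 under LPS. The LPS and medium arrays did not overlap in any genotype, and the LPS arrays of both deleted genotypes lay below those of wt. The median log2 signal over all genes tested gave the same order with smaller steps. It was 7.81 to 7.93 in medium and 7.67 to 7.77 under LPS in wt BMDM. In MK2-/- BMDM it was 7.69 to 7.81 and 7.61 to 7.63, and in MK2/3-/- BMDM 7.75 to 7.79 and 7.475 to 7.63. The spread was widest among the MK2/3-/- LPS arrays, where the median SD of a member between arrays was 0.30, compared with 0.11 to 0.20 in the other 5 groups. The same held over all genes, with a median SD of 0.45 in that group and 0.25 to 0.35 in the others.

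**Figure D2:**
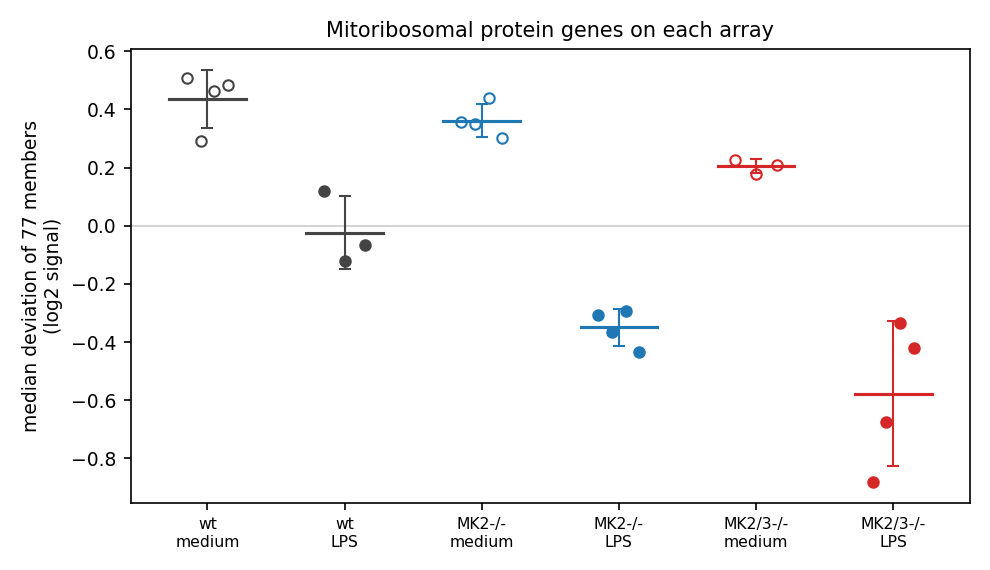
Median deviation of the 77 members from their own mean over 22 arrays, in log2 units, for each array (points), with the mean (line) and SD (bar) of each group. Open points are medium and filled points LPS arrays. LPS arrays lie below the medium arrays of the same genotype throughout, and MK2/3-/- LPS arrays reach -0.88.

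Among the large subunit proteins, Mrpl41, which is specific to mitochondria, fell most in wt BMDM. Its log2 signal was 12.68, 12.51, 12.66 and 12.65 in wt medium and 11.44, 10.26 and 10.32 in wt LPS, a difference of -1.95 ± 0.28 (SE), or 3.86-fold lower, with an adjusted p of 1.65e-05. In MK2-/- BMDM it was 12.10, 12.72, 12.55 and 12.56 in medium and 10.46, 10.87, 10.45 and 9.67 under LPS, which is 4.36-fold lower at an adjusted p of 1.48e-06. In MK2/3-/- BMDM it was 12.52, 12.51 and 12.12 in medium and 9.55, 9.95, 9.82 and 10.18 under LPS, or 5.70-fold lower (adjusted p = 4.60e-07). Every LPS array lay below every medium array in each genotype. A second, dimmer probe for the same Mrpl41 transcript gave -0.12, -0.56 and -0.65 in the 3 genotypes and passed the test in none, with adjusted p-values of 0.77, 0.085 and 0.06, so that the size of the Mrpl41 change depends on the probe.

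Mrpl51, another mitochondria-specific protein of the large subunit, had a single kept probe. Its log2 signal was 14.65, 14.29, 14.16 and 14.58 in wt medium and 13.31, 12.80 and 12.74 in wt LPS, 2.77-fold lower with a difference of -1.47 ± 0.18 (SE, adjusted p = 2.47e-06). The fall was 3.25-fold in MK2-/- BMDM, at an adjusted p of 7.82e-08, and 4.11-fold in MK2/3-/- BMDM, at an adjusted p of 2.29e-08, where the signal was 14.23 to 14.28 in medium and 11.97 to 12.48 under LPS. Mrpl34, whose counterpart belongs to the bacterial large subunit, was at 12.62, 12.35, 12.52 and 12.74 in wt medium and at 11.34, 10.74 and 10.76 in wt LPS. This was a difference of -1.61 ± 0.21 (adjusted p = 5.09e-06), and the differences in MK2-/- and MK2/3-/- BMDM were -1.87 and -1.72. For Mrpl51 and Mrpl34 the LPS and medium arrays did not overlap in any genotype.

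Mrpl50 and Mrpl42, both mitochondria-specific proteins of the large subunit, entered the largest falls only in deleted cells. Mrpl50 was at 11.24, 11.14, 11.09 and 11.11 in wt medium and 10.16, 9.77 and 9.85 in wt LPS, a difference of -1.22 ± 0.23 (adjusted p = 0.000321). In MK2-/- BMDM it changed by -1.21 (adjusted p = 0.000109), much as in wt. In MK2/3-/- BMDM it was at 11.03, 11.10 and 10.91 in medium and 8.34, 9.27, 8.53 and 9.32 under LPS, a difference of -2.14 ± 0.23 (adjusted p = 3.03e-07). A second Mrpl50 probe gave -0.41 in wt (adjusted p = 0.32) and -1.66 in MK2/3-/- (adjusted p = 0.000198). Mrpl42 gave -0.96 ± 0.42 in wt, which did not pass the test (adjusted p = 0.074), and changed by -1.81 in MK2-/- BMDM, with an adjusted p of 0.000705, and by -1.87 in MK2/3-/- BMDM, with an adjusted p of 0.00102. Under LPS its 4 MK2/3-/- arrays were uneven, at 7.77, 7.92, 9.78 and 9.68.

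Among the small subunit proteins, the mitochondria-specific Mrps35 showed the largest fall of any member in both deleted genotypes. Its log2 signal was 10.46, 10.42, 10.57 and 10.71 in wt medium and 9.37, 8.83 and 9.14 in wt LPS, 2.69-fold lower (difference -1.43 ± 0.33, adjusted p = 0.00159). In MK2-/- BMDM it was 10.54, 10.09, 10.53 and 10.43 in medium and 7.73, 7.74, 7.85 and 7.98 under LPS, 5.96-fold lower (adjusted p = 8.10e-07). In MK2/3-/- BMDM it was 10.42, 10.32 and 10.39 in medium and 6.06, 6.54, 7.38 and 8.19 under LPS, 10.1-fold lower (adjusted p = 8.22e-08). LPS arrays were below medium arrays in each genotype, and the 4 MK2/3-/- LPS arrays spread over more than 2 log2 units.

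Mrps26, also specific to mitochondria, was measured alike by both of its kept probes. The chosen probe read 13.66, 13.30, 13.50 and 13.69 in wt medium and 12.63, 11.64 and 11.71 in wt LPS, a difference of -1.54 ± 0.29 (adjusted p = 0.000323), and the other probe gave -1.53. In MK2-/- the 2 probes gave -2.12 and -2.27, and in MK2/3-/- BMDM -2.50 and -2.44. Under LPS the MK2/3-/- arrays of the chosen probe were at 9.77, 10.18, 11.16 and 11.16, below all MK2/3-/- medium arrays at 12.97 to 13.17. Mrps23 fell by 1.48 in wt (adjusted p = 1.02e-06), by 1.44 in MK2-/- and by 1.30 on the log2 scale in MK2/3-/- BMDM with its chosen probe. Its second probe gave -0.09, -0.41 and -0.01, and of these only the MK2-/- value passed the test (adjusted p = 0.0112).

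Mrpl52 and Mrpl46, which encode mitochondria-specific proteins of the large subunit, were the only members called higher after quantile normalisation (6 to 8 were with scaling to the 75th percentile), and they were called in every genotype. Mrpl52 was at 14.30, 14.22, 14.50 and 14.60 in wt medium and 15.76, 15.46 and 15.24 in wt LPS, a rise of 1.09 ± 0.18 (adjusted p = 8.28e-05). The rise was 1.17 in MK2-/- BMDM, with an adjusted p of 1.04e-05, and 0.91 in MK2/3-/- BMDM, with an adjusted p of 0.00035. LPS and medium arrays of Mrpl52 did not overlap. Mrpl46 was at 10.67, 10.66, 10.88 and 10.79 in wt medium and 11.49, 11.46 and 11.44 in wt LPS, a rise of 0.71 ± 0.17 (adjusted p = 0.00183). In MK2-/- BMDM it was at 10.70, 10.80, 10.99 and 10.68 in medium and 11.30, 11.10, 11.24 and 11.40 under LPS, a rise of 0.47 with an adjusted p of 0.0179. It was at 10.63, 10.50 and 10.56 in medium and 10.68, 10.99, 11.50 and 11.26 under LPS in MK2/3-/- BMDM, a rise of 0.55 with an adjusted p of 0.0105. Its groups did not overlap in any genotype, although the lowest MK2/3-/- LPS array lay close to the medium arrays. The MK2-/- call was lost without MK2-/- LPS replicate 4 or without MK2-/- medium replicate 4, with an adjusted p of up to 0.0531, and the MK2/3-/- call was lost when only the groups compared were fitted (adjusted p = 0.107) or with the methods' t-test.

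**Figure D3:**
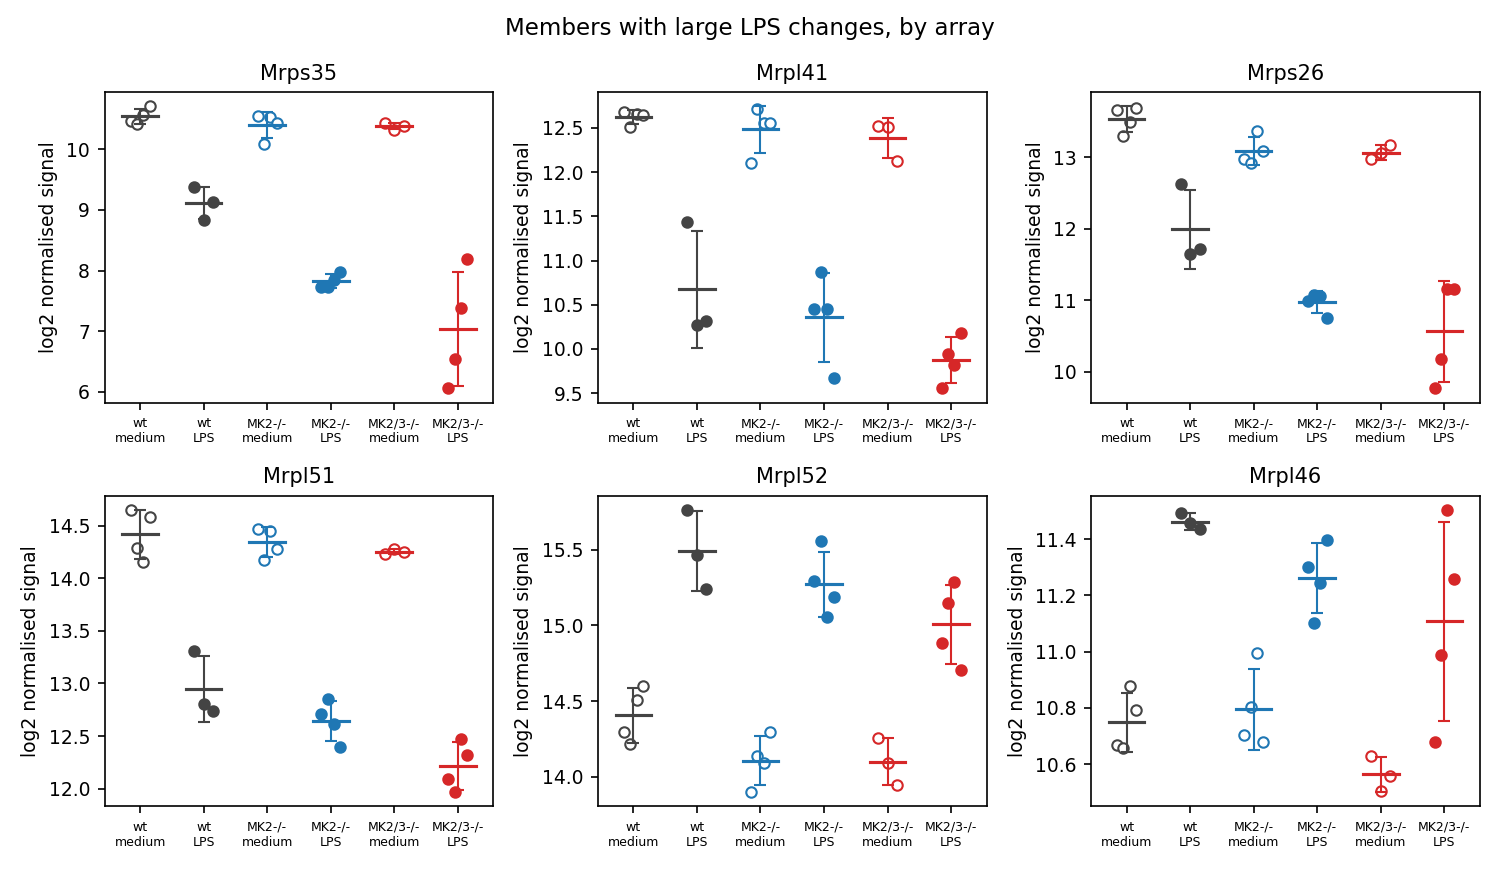
Log2 normalised signal of 6 members on each array (points), with the mean (line) and SD (bar) of each group. Each panel has its own vertical axis, open points are medium and filled points LPS arrays. Mrps35, Mrpl41, Mrps26 and Mrpl51 are lower under LPS in each genotype, Mrpl52 and Mrpl46 are higher, and the LPS arrays of Mrps35 reach 6.06 in MK2/3-/- BMDM.

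Members with either symbol and of both structural classes were among those called lower under LPS. The symbol does not always give the subunit. The structural lists hold 28 and 21 tested proteins of the large subunit and 16 and 10 of the small subunit, with and without a bacterial counterpart. In wt BMDM, 19 of 48 members with an Mrpl symbol and 14 of 29 with an Mrps symbol were called lower, with medians of -0.31 and -0.48. For MK2/3-/- BMDM the counts were 29 and 18 and the medians -0.75 and -0.86. Of 44 proteins with a bacterial counterpart, 16 were lower in wt, 25 in MK2-/- and 24 in MK2/3-/-. Of 31 proteins specific to mitochondria, 15, 19 and 21 were lower, and both members that rose were in this class. Mrps36 and Mrpl55, which were assigned to neither class, were lower in every genotype. Without the 2 arrays that went against their sex label, 24 Mrpl and 16 Mrps genes were lower in MK2-/- BMDM, of them 21 with a bacterial counterpart and 18 specific to mitochondria. Of all genes tested, 23.2%, 26.7% and 27.5% were lower in wt, MK2-/- and MK2/3-/- BMDM. Of genes with a mean log2 signal of at least 10, 35.4%, 40% and 41.7% were lower. In wt BMDM the shares with a bacterial counterpart (36.4%) and with an Mrpl symbol (39.6%) lay near that of these bright genes. Differences between the classes were not tested. The members with the brightest probes were Mrpl52, Mrpl33 and Mrpl20 and those with the dimmest were Mrpl35, Mrps27 and Mrps5, all above background on every array.

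The LPS counts were stable in size but not in the split of directions. Scaling each array by its 75th percentile in place of quantile normalisation placed the median LPS response of all genes at 0.25 in wt, 0.26 in MK2-/- and 0.24 in MK2/3-/- BMDM. With this scaling, 20 members were called lower and 7 higher in wt, 36 and 6 in MK2-/-, and 38 and 8 in MK2/3-/- BMDM. Of all genes, 19.5% were then lower and 26.9% higher in wt, 21% and 23% in MK2-/-, and 22.5% and 24.2% in MK2/3-/- BMDM. Relative to the median of all genes, the median of members was then -0.43, -0.69 and -0.80, close to the -0.39, -0.64 and -0.83 of the quantile-normalised values. Without the 2 arrays that went against their sex label, 40 members were lower and 2 higher in MK2-/- BMDM, with a median of -0.62.

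Direct comparison of genotypes asked whether members differ between deleted and wt BMDM under LPS. In MK2/3-/- BMDM, 30 of 77 members were called lower than in wt under LPS, where 14.3% of all genes were lower and 9.4% higher, and no member was higher. In MK2-/- BMDM, 8 members were lower than in wt (7.11% of all genes) and none was higher (4.5%). The median difference from wt was -0.30 in MK2-/- and -0.48 in MK2/3-/- BMDM, against -0.04 and -0.03 over all genes, and 67 and 70 of 77 members lay below wt. The 8 members lower in MK2-/- were Mrps35, Mrps26, Mrpl35, Mrps22, Mrps31, Mrpl2, Mrpl40 and Mrps36, and all but Mrpl2 were also among the 30 in MK2/3-/- BMDM. Both comparisons used the same wt arrays. For MK2-/- against wt, second probes of Mrpl40 and Mrps36 gave -0.52 and -0.54 and did not pass the test (adjusted p = 0.062 and 0.051). For MK2/3-/- against wt they gave -1.1 (adjusted p = 0.000376) and -0.47 (adjusted p = 0.057). Over 22 members with a second probe, 3 chosen and 4 other probes were called for MK2-/- against wt, and 0 members by both. The collagen-led sum of stromal markers, 4 of 5 tested, was 11400 to 62600 on wt LPS arrays, 1580 to 19300 on MK2-/- LPS and 1240 to 31000 on MK2/3-/- LPS arrays, and that of neutrophil markers, 6 of 7 tested, was 2400 to 3070, 1970 to 3100 and 3560 to 5250. Neutrophil sums of MK2/3-/- and wt LPS arrays did not overlap and stromal sums did. Lymphocyte marker sums of MK2-/- and wt LPS arrays did not overlap, at 3370 to 4550 against 2120 to 2770 (2 wt arrays). The same held for macrophage markers, at 575000 to 669000 against 466000 to 511000. It also held for erythroid markers (133 to 166 against 105 to 132) and mast cell and basophil markers (68.9 to 101 against 151 to 379). The part of any of these sums in the differences was not tested.

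The count for MK2/3-/- against wt under LPS changed with the fit and the scaling. It was 2 when only these 2 groups were fitted and 0 with the methods' t-test once adjusted, whereas 29 members passed that t-test without adjustment, as did 26.1% of all genes. It was 15 without wt LPS replicate 1, 17 without MK2/3-/- LPS replicate 1, 19 without MK2/3-/- LPS replicate 2 and 63 with scaling to the 75th percentile, under which 17.1% of all genes were lower. The MK2-/- count was 2 without wt LPS replicate 1, 5 without wt LPS replicate 3, 4 without MK2-/- LPS replicate 1 or 2, 3 without MK2-/- LPS replicate 4, and 35 with scaling to the 75th percentile (8.56% of all genes lower). Without the 2 arrays that went against their sex label, 28 members were lower in MK2/3-/- and 8 in MK2-/- BMDM, and the MK2-/- median was -0.29.

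Among the chosen probes, that of Mrps35 differed most from wt under LPS. Its 4 MK2-/- arrays, at 7.73 to 7.98, and its 4 MK2/3-/- arrays, at 6.06 to 8.19, all lay below the 3 wt arrays at 8.83 to 9.37. The difference was -1.29 ± 0.33 for MK2-/- at an adjusted p of 0.0184 and -2.07 ± 0.33 for MK2/3-/- at an adjusted p of 0.000324, and the MK2-/- call was lost without wt LPS replicate 1 or 3 (adjusted p up to 0.0705). Mrps26 was 2.03-fold lower for MK2-/- at an adjusted p of 0.0328 and 2.69-fold lower for MK2/3-/- at an adjusted p of 0.00225. Its second probe gave -0.60 (adjusted p = 0.14) and -1.16 (adjusted p = 0.00478), and its MK2-/- call was lost without wt LPS replicate 1 or MK2-/- LPS replicate 1, 2 or 4. Mrpl35, the counterpart of a bacterial large subunit protein, was 1.97-fold lower in MK2-/- BMDM, at an adjusted p of 0.00702, and 2.66-fold lower in MK2/3-/- BMDM, at an adjusted p of 0.000146, with LPS arrays at 7.96, 8.32 and 8.40 in wt, 7.44, 7.06, 7.36 and 7.12 in MK2-/- and 6.58, 6.68, 7.18 and 6.82 in MK2/3-/- BMDM. Mrps22, a mitochondria-specific small subunit protein, was at 11.27, 11.32 and 11.21 in wt LPS, 10.04 to 10.57 in MK2-/- LPS and 9.48 to 10.72 in MK2/3-/- LPS, 1.92-fold lower (adjusted p = 0.0152) and 2.39-fold lower (adjusted p = 0.000888).

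Mrpl38, Mrps5 and Mrps2 were next in size for MK2/3-/- against wt, and their LPS response in wt BMDM did not pass the test, as was also so for Mrpl35 and Mrps22. Mrpl38, a mitochondria-specific large subunit protein, was at 9.74, 9.20 and 9.97 in wt LPS and 7.71, 8.44, 8.52 and 6.54 in MK2/3-/- LPS, 3.57-fold lower (adjusted p = 0.00128). Mrps5, the counterpart of a bacterial small subunit protein, was at 9.50, 9.20 and 9.45 in wt LPS and 6.72, 7.72, 8.11 and 8.61 in MK2/3-/- LPS, 3.02-fold lower (adjusted p = 0.00132). Mrps2, the counterpart of another bacterial small subunit protein, was at 10.02, 9.70 and 10.17 in wt LPS, 9.64, 9.56, 9.49 and 9.64 in MK2-/- LPS and 8.01, 8.70, 8.54 and 8.39 in MK2/3-/- LPS. Relative to wt, the MK2/3-/- signal was 2.94-fold lower, at an adjusted p of 3.30e-05. The wt LPS and MK2/3-/- LPS arrays did not overlap for these 3 members.

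**Figure D4:**
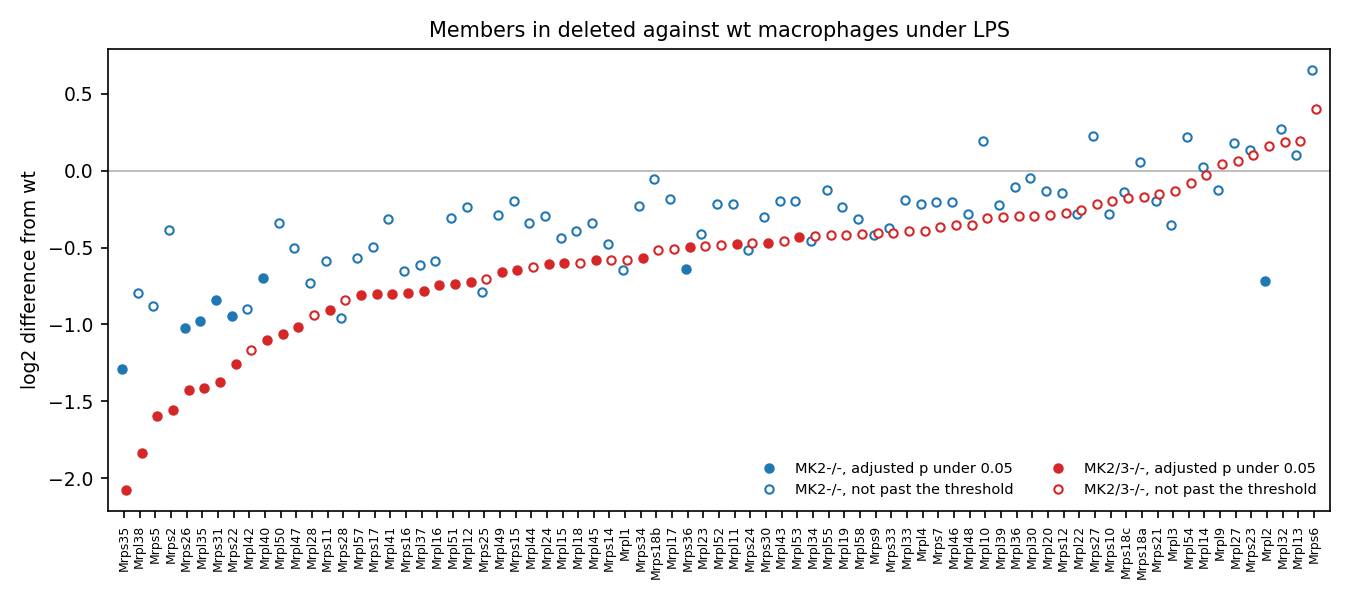
Difference of the 77 members from wt under LPS, in log2 units, for MK2-/- and MK2/3-/- BMDM. Members are ordered by the MK2/3-/- value, and filled points passed an adjusted p of 0.05. Most points lie below 0, with Mrps35 lowest at -2.07 in MK2/3-/- and -1.29 in MK2-/- BMDM.

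Between the deleted genotypes, 4 members were lower in MK2/3-/- than in MK2-/- BMDM under LPS (6.04% of all genes) and 1 was higher (7.72%). Mrps2 was 2.25-fold lower (adjusted p = 7.94e-05), Mrpl38 gave -1.04 (adjusted p = 0.0389), Mrpl50 -0.72 (adjusted p = 0.0323) and Mrpl10, a protein at the base of the stalk, -0.50 (adjusted p = 0.0442). Mrpl2, a bacterial counterpart near the peptidyl transferase centre, was the member that was higher, by 0.88 ± 0.19 (adjusted p = 0.0045). It was at 13.06, 12.83, 13.13 and 12.73 in MK2-/- LPS, 14.21, 14.12, 13.59 and 13.34 in MK2/3-/- LPS and 13.65, 13.35 and 13.98 in wt LPS, so that its MK2-/- arrays lay below those of both other genotypes. Second probes gave -0.50 for Mrps2 (adjusted p = 0.26) and -0.25 for Mrpl10 (adjusted p = 0.24), which did not pass the test. That of Mrpl50 gave -0.92 (adjusted p = 0.041). In all, 4 of 22 second probes were called in this comparison. The call for Mrpl10 was lost in 16 of 22 fits that left out 1 array, that for Mrpl38 in 5 and that for Mrpl50 in 4. The calls for Mrpl38 and Mrpl10 were also lost without the arrays that went against their sex label, where 3 members were called. The total was 2 without MK2-/- LPS replicate 1 or 2, 3 without MK2-/- LPS replicate 3, 8 without MK2/3-/- LPS replicate 3, and 1 with only these groups fitted or with the methods' t-test after adjustment.

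Whether the LPS response itself differed between genotypes was tested as an interaction, in which an additive effect of the slide cancels. The interaction was below 0, a larger fall or a smaller rise than in wt, for 64 of 77 members in MK2-/- and 66 of 77 in MK2/3-/- BMDM, against 12431 and 11881 of 22383 genes, and 1 member passed the test. No member was called for MK2-/- against wt, as for all genes (0%), and 10 members had an unadjusted limma p below 0.05, as had 1633 of 22383 genes. For MK2/3-/- against wt, 1 member was called (0.652% of all genes) and 16 members had an unadjusted p below 0.05, as had 2531 of all genes. For MK2/3-/- against MK2-/- none was called (0.0536%), with 5 members and 1929 of all genes below 0.05 before adjustment. The median interaction of members was -0.23, -0.29 and -0.02, against -0.07, -0.04 and 0.00 over all genes. Without the 2 arrays that went against their sex label, 58 members were below 0 for MK2-/- against wt, with a median of -0.18.

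Mrps2 was the member called. Its log2 signal was 10.11, 10.15, 10.05 and 10.14 in wt medium and 10.02, 9.70 and 10.17 in wt LPS, a difference of -0.15 (adjusted p = 0.52). In MK2/3-/- BMDM it was 9.90, 9.99 and 9.80 in medium and 8.01, 8.70, 8.54 and 8.39 under LPS, a difference of -1.49 (adjusted p = 5.22e-07), and the interaction was -1.34 ± 0.24 (adjusted p = 0.0246). A second kept probe for the same Mrps2 transcript gave 0.01 for the LPS response in MK2/3-/- (adjusted p = 0.97), 0.38 for MK2/3-/- against wt under LPS (adjusted p = 0.34) and 0.25 for the interaction (adjusted p = 0.91), so that the probes disagree in sign and call. The interaction call was lost without wt LPS replicate 1, wt medium replicate 1 or any of the 3 MK2/3-/- medium replicates (adjusted p up to 0.0781), and the number of members called was then 0, while it was 2 without MK2/3-/- LPS replicate 3 and 5 without MK2/3-/- LPS replicate 4. The interaction of Mrps35 was larger, at -1.91 ± 0.46, and did not pass the test (adjusted p = 0.0604).

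In medium, few members were called between genotypes, while the members as a group lay lower in MK2/3-/- BMDM. So did the nuclear respiratory chain subunits, with 67 of 82 below wt and a median of -0.18. All 5 tested mitoribosome proteins with other symbols were also below wt there, with a median of -0.39. In MK2/3-/- BMDM, 71 of 77 members were below wt, against 11951 of 22383 genes, with a median of -0.18 against -0.04. The member medians of the MK2/3-/- arrays lay below those of all wt arrays. So did the medians over all genes tested, at 7.75 to 7.79 against 7.81 to 7.93. For MK2-/- against wt, 48 of 77 members were below wt, with a median of -0.09, or 52 and -0.12 without the 2 arrays that went against their sex label, and for MK2/3-/- against MK2-/- 54 were below, with a median of -0.12, or 48 and -0.08 without them. Neutrophil marker sums were 2660 to 3370 in wt, 2630 to 6450 in MK2-/- and 4490 to 5850 in MK2/3-/- medium. Lymphocyte marker sums were 1070 to 1920, 2310 to 5120 and 1740 to 2380. Mast cell and basophil marker sums were 60 to 345, 17.1 to 49.9 and 45.8 to 134. Neutrophil sums did not overlap between MK2/3-/- and wt medium. Lymphocyte sums did not overlap between MK2-/- and wt medium, nor did mast cell and basophil sums. The part of these sums was not tested. Against wt, 2 members were called lower in MK2-/- BMDM (8.57% of all genes were called in either direction) and none was called in MK2/3-/- BMDM (1.95%), where 4 members and 3832 of 22383 genes had an unadjusted limma p below 0.05. Mrps14, a counterpart of a bacterial small subunit protein, was at 12.85, 12.51, 12.50 and 12.52 in wt medium and 11.92, 10.90, 12.10 and 12.16 in MK2-/- medium, a difference of -0.83 ± 0.23 (adjusted p = 0.0321). Mrpl35 was at 8.21, 8.25, 8.49 and 8.35 in wt medium and 7.73, 7.06, 7.88 and 7.76 in MK2-/- medium, a difference of -0.72 ± 0.19 (adjusted p = 0.0252). Both calls were lost without MK2-/- medium replicate 2 or any of wt medium replicates 1, 3 and 4, and that for Mrps14 also without wt medium replicate 2. With MK2/3-/- LPS replicate 3 left out, 4 members were called. Between MK2/3-/- and MK2-/- BMDM in medium, Mrpl10 alone was called lower (2.82% of all genes in either direction), at 10.53, 10.44 and 10.41 against 11.03, 11.56, 11.04 and 10.88 (adjusted p = 0.0451), and this call was lost in 14 of 22 fits that left out 1 array.

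Other nuclear genes of mitochondrial gene expression were described from fixed lists. All of the lists concerned with mitochondrial translation fell in larger part than they rose. Of all genes tested, 23.2% were lower in wt, 26.7% in MK2-/- and 27.5% in MK2/3-/- BMDM. The shares that were higher were 18.6%, 17.7% and 20.3%. Of 5 tested mitoribosome proteins with other symbols, 4 were lower in wt, 5 in MK2-/- and 4 in MK2/3-/- BMDM, among them Aurkaip1 (-0.93 in wt) and Ptcd3 (-0.91). Of 13 mitochondrial translation factors, 5, 11 and 9 were lower and none was higher, among them Mtrf1, a release factor, at -1.62, -3.14 and -3.68, and Oxa1l, an inner membrane insertase, at -1.33, -1.90 and -1.72. Of 19 aminoacyl-tRNA synthetases and related enzymes of mitochondria, 13, 17 and 18 were lower and none was higher, with medians of -1.19, -1.51 and -1.87. Vars2, the valyl-tRNA synthetase, gave -2.27, -2.71 and -3.76 (adjusted p = 2.03e-06, 4.23e-08 and 2.03e-09).

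Of 24 genes for mitoribosome assembly and ribosomal RNA modification, 12, 17 and 18 were lower and 2, 1 and 2 higher. Rbfa, a small subunit assembly factor, gave -2.78, -3.83 and -4.54, and Mrm1, a ribosomal RNA methyltransferase, -2.56, -2.17 and -3.00, whereas Eral1, an assembly GTPase, rose by 0.62 in wt BMDM (adjusted p = 0.00728). Of 9 genes for mitochondrial transcription and RNA, 6, 7 and 7 were lower, with Twnk, the mitochondrial helicase, at -2.09, -2.80 and -4.07 and Slirp, an RNA-stabilising protein, higher by 0.51, 0.69 and 0.84. Regulators of mitochondrial biogenesis moved in both directions. Of 11, 1 was lower and 1 higher in wt, 1 lower and 4 higher in MK2-/-, and 3 lower and 1 higher in MK2/3-/- BMDM. The GABP beta subunits went opposite ways, with Gabpb1 rising by 1.12 in wt (adjusted p = 0.00014) and Gabpb2 falling by 1.25 on the log2 scale (adjusted p = 0.00162).

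Cytosolic ribosomal proteins and nuclear-encoded respiratory chain subunits were also lower under LPS in large part, where 23.2%, 26.7% and 27.5% of all genes were. Of 86 cytosolic ribosomal protein genes, 52, 56 and 64 were lower in wt, MK2-/- and MK2/3-/- BMDM, with medians of -0.45, -0.43 and -0.50. Of 82 respiratory chain subunits, 49, 52 and 50 were lower, with medians of -0.55, -0.51 and -0.57. Under LPS, 3 cytosolic ribosomal protein genes (3.49%) and 12 respiratory chain subunits (14.6%) were lower in MK2/3-/- than in wt BMDM. The share over all genes was 14.3%, so that of the respiratory chain subunits lay near it. For mitoribosomal protein genes the count was 30 of 77 (39%), and for synthetases 14 of 19. The differences between lists were not tested. Over all genes, 5300 of 22383 were lower and 3788 higher in MK2-/- BMDM when the 2 arrays against their sex label were left out. Without the 2 arrays that went against their sex label, the numbers lower in MK2-/- BMDM were 3 of 5 mitoribosome proteins with other symbols, 10 translation factors, 15 synthetases, 17 assembly genes, 7 genes for transcription and RNA, 39 cytosolic ribosomal proteins and 42 respiratory chain subunits, while 1 regulator was lower and 3 were higher.

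**Figure D5:**
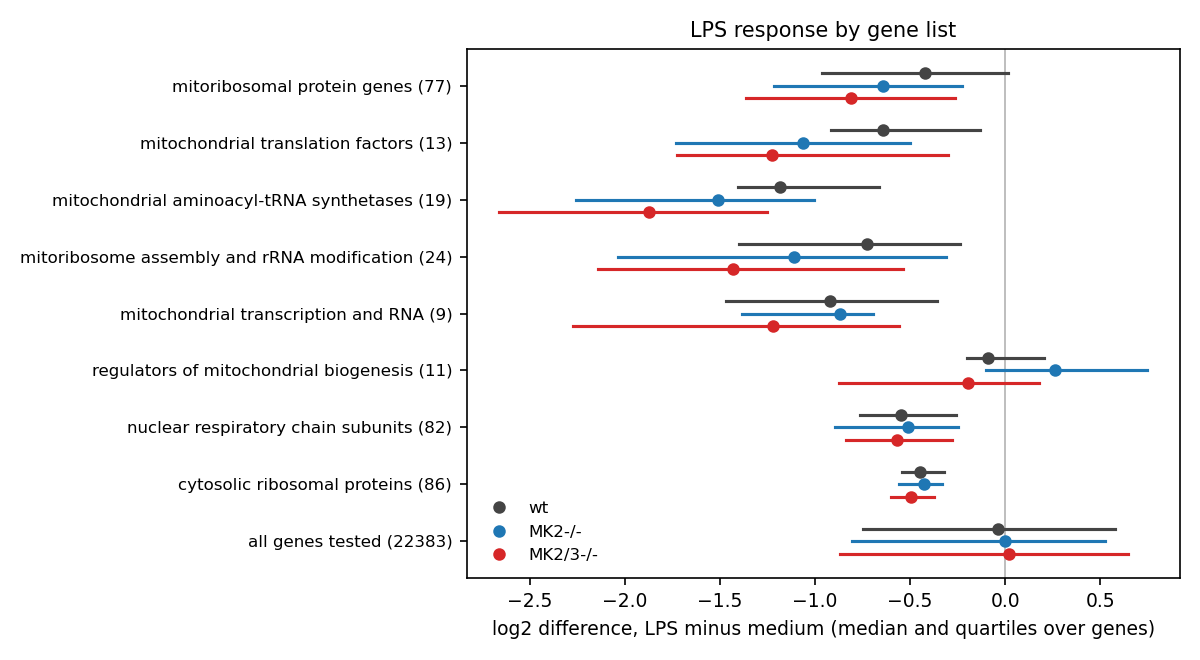
LPS response by gene list and genotype. Points are the median log2 difference, LPS minus medium, over the genes of a list and lines run between the quartiles, with the number of genes tested in parentheses. Medians of the mitoribosomal protein genes are -0.42 in wt, -0.64 in MK2-/- and -0.81 in MK2/3-/- BMDM, those of cytosolic ribosomal proteins lie at -0.43 to -0.50, and those of all genes lie near 0.

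The share of members called lower was also described by gene length. Split at the median genomic length of 7632 bases, 21 of 38 shorter and 12 of 39 longer members were lower in wt, 26 and 20 in MK2-/-, and 28 and 19 in MK2/3-/- BMDM, with medians of -0.61 and -0.15 in wt. Spearman's rho between length and log2 difference across the members was 0.29, 0.26 and 0.26, compared with -0.03, -0.02 and -0.05 over the 18375 named genes. For comparison, 23.2%, 26.7% and 27.5% of all genes tested were lower in wt, MK2-/- and MK2/3-/- BMDM. Of genes with a mean log2 signal of at least 10, these shares were 35.4%, 40% and 41.7%. These are descriptions across genes, which share arrays and are not independent replicates.

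Some member genes begin next to another gene on the opposite strand, and such pairs can share a promoter region. Of the 68 members with a window, 25 (36.8%) had another annotated start on the opposite strand within 1000 bases upstream, compared with 15.3% of tested genes with a window. Of the 24 neighbours that were tested, 14, 17 and 15 were lower and 4, 3 and 4 higher under LPS in wt, MK2-/- and MK2/3-/- BMDM, with medians of -0.69, -0.88 and -0.82. Mrpl46 and Mrps11, whose starts are 42 bases apart, are both members, and moved in opposite directions in the deleted genotypes. Mrps11, a counterpart of a bacterial small subunit protein, changed by -0.85 in MK2-/- BMDM at an adjusted p of 0.00397 and by -0.86 in MK2/3-/- BMDM at an adjusted p of 0.00554, where Mrpl46 rose, and gave -0.48 in wt (adjusted p = 0.12). Mrpl30, a large subunit protein, gave -0.10 in wt while its neighbour Mitd1, with a start 66 bases away, rose by 2.54 (adjusted p = 8.07e-08). Mrpl43 and Twnk, with starts 116 bases apart, both fell, by 1.20 and 2.09 in wt.

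A second kept probe was present for 22 members and bore on how single members are read. Its sign matched that of the chosen probe for 19 of 22 members in wt, 20 in MK2-/- and 18 in MK2/3-/- BMDM. Both probes were called for 5, 10 and 10 members, and no pair was called in opposite directions. The chosen and the other probe were called for 11 and 8 members in wt, 15 and 13 in MK2-/-, and 14 and 15 in MK2/3-/- BMDM, and all calls of the other probe were falls. Apart from Mrps2, opposite signs with 1 probe called were seen for Mrpl4, a large subunit protein, at -0.71 (adjusted p = 0.00942) and 0.25 (adjusted p = 0.38) for the LPS response in MK2/3-/-, and for Mrps33, a small subunit protein, at -0.03 (adjusted p = 0.94) and 0.59 (adjusted p = 0.0255) for MK2/3-/- against MK2-/- under LPS. The second probes of Mrps14 and Mrps33 showed larger differences from wt under LPS than the chosen ones. For Mrps14 the second probe, which was dimmer but above background on all 22 arrays, gave -1.90 for MK2-/-, at an adjusted p of 0.000398, and -2.18 for MK2/3-/-, at an adjusted p of 3.13e-05, beyond the values of Mrps35, where the chosen probe gave -0.48 (adjusted p = 0.20) and -0.58 (adjusted p = 0.093). For Mrps33 the second probe gave -1.30 in MK2-/- BMDM (adjusted p = 0.000802), where the chosen probe gave -0.38 (adjusted p = 0.10).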

How the data were processed

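RNA of each sample was labelled with Cy3 and hybridised to a 1-colour Agilent mouse array. The authors deposited scanner output of Agilent Feature Extraction 11.0.1.1, in which the processed intensity of each spot is corrected for background and not yet normalised between arrays. A second deposited file holds log2 values, normalised and centred per probe, whose columns followed the centred values computed here with r of 0.993 to 0.999 and medians of -0.162 to 0.074. The array design is annotated on mm9, and coordinates are therefore given only for RefSeq promoter windows on GRCm38.p6.

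Control spots and spots marked as outliers were left out, spots of a probe were averaged, and log2 processed signals were quantile normalised over 22 arrays. A probe with an NCBI accession entered if 3 or more arrays had it well above background, which left 28103 probes, and the brightest stood for its gene. Limma 3.58.1 in R 4.3.3 was fitted to 6 group means with 22383 genes, with eBayes and two-sided Benjamini-Hochberg adjusted p-values. Data were read with the package data.table (version 1.17.8), block correlations used statmod 1.5.0, and promoter windows and plots used Python 3.11.15, pandas 2.3.3 and matplotlib 3.10.9. The fit was tested on simulated data. Precision is limited by the 3 or 4 arrays per group.

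Members and gene lists were chosen with earlier results of these data known. Members named are, per LPS response, the 6 largest called rises and falls, per other comparison the 4 largest called differences each way, the 3 brightest and 3 dimmest, and those whose probes disagree. From other lists the 2 largest called changes each way in wt were eligible. Mrps11, Mrpl30 and Mrpl43 were chosen after their values were seen. Alternatives were another scaling, background correction, filter, probe choice, fit, weights, blocks, the methods' t-test and leaving out arrays. The deposited log2 table was added as an alternative after seeing the data.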

Additional observations from a re-analysis of the deposited data

Results flagged for a closer look

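Arrays at a wide gap from the others of a group were sought for the named members and the member median in 76 groups of 4 arrays, and 4 were found, where chance gives about 1 in 20. Mrpl10 read 10.40 on wt medium replicate 2 against 10.66 to 10.69 on the other 3 arrays. Mrps14 read 12.85 on wt medium replicate 1 against 12.50 to 12.52. Mrps23 read 12.48 on MK2-/- LPS replicate 4 against 12.33 on the other 3 arrays. Mrps5 read 8.72 on MK2-/- medium replicate 2 against 9.40 to 9.46. The Mrps14 array lies in a group of the Mrps14 call for MK2-/- against wt in medium, which was lost without it, as it was without any other wt medium array.

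The LPS response differed between genotypes by the interaction test for 1 member, Mrps2, at -1.34 for MK2/3-/- against wt BMDM. Its second probe gave 0.25 for the same difference.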

How the results depend on the processing

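The number of members called in each LPS response stayed within 1.5 times its value under every alternative, at 28 to 37 in wt, 44 to 50 in MK2-/- and 47 to 50 in MK2/3-/- BMDM when 1 array was left out. The medians relative to all genes kept their sign. The genotype comparisons were less stable, and so were their calls over all genes. With 75th percentile scaling, calls over all genes went from 11.6% to 21.5% for MK2-/- against wt under LPS. For MK2/3-/- against wt under LPS they went from 23.7% to 36.5%. In medium they went from 8.57% to 21.9% for MK2-/- and from 1.95% to 18.8% for MK2/3-/- against wt. For MK2-/- against wt under LPS, 8 members became 35 with 75th percentile scaling, 5 with only the groups compared, 23 with array weights, 4 with the methods' t-test and 2 to 11 without 1 array. For MK2/3-/- against wt under LPS, 30 became 63 with 75th percentile scaling, 2 with only the groups compared, 0 with the methods' t-test and 15 to 39 without 1 array. For MK2/3-/- against MK2-/- under LPS, 5 became 8 with normexp, 8 with the probe of highest LPS induction, 1 with only the groups compared, 1 with the methods' t-test, 3 without the arrays against their sex label and 2 to 8 without 1 array. In medium, MK2-/- against wt went from 2 to 9 with 75th percentile scaling, 0 with only the groups compared, 4 with array weights, 0 with the methods' t-test and 0 to 4 without 1 array. MK2/3-/- against wt in medium went from 0 to 10 with 75th percentile scaling, 1 with the probe of highest LPS induction and 1 with array weights. MK2/3-/- against MK2-/- in medium went from 1 to 2 with normexp, 0 with only the groups compared, 2 with array weights, 0 with the methods' t-test, 0 without the arrays against their sex label and 0 to 2 without 1 array. The interaction for MK2/3-/- against wt went from 1 to 2 with normexp, 0 with only the groups compared, 4 with array weights and 0 to 5 without 1 array. With array weights, 6040 of 22383 genes were called for MK2-/- against wt under LPS, compared with 2598 in the main fit. In medium, 3018 genes were then called for MK2-/- and 1827 for MK2/3-/- against wt, compared with 1918 and 437. With only the groups compared, 1465 genes were called for MK2/3-/- against wt under LPS, compared with 5301. Fits of fewer arrays have fewer degrees of freedom, and the cause of the other changes was not tested. The t-test has no form for the interactions.

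The labels do not state that equal numbers share an animal. Equally numbered medium and LPS arrays of MK2-/- BMDM have equal ages and both arrays against their sex label are number 3, whereas in wt and MK2/3-/- BMDM the ages of number 3 differ. The deviations of 7 of 10 pairs correlated above 0.1 (lowest -0.086), so pairing was not settled. With a random replicate block, the members called for the MK2/3-/- against wt interaction went from 1 to 2 by letter and to 2 by number, and other counts stayed within 1.5 times. With the deposited log2 table, added after seeing the data, every count stayed within 1.5 times.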
